A study of Homo sapiens with 3 samples.

Results

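Integrins and laminins are cell adhesion receptors and the basement membrane proteins that several of those receptors hold. The members were taken by name from the deposited count files, as the protein-coding genes of the numbered or lettered integrin alpha chains, the numbered integrin beta chains and the numbered laminin alpha, beta and gamma chains. This gave 38 of 58735 genes, of which 26 encode integrin chains (18 alpha and 8 beta) and 12 encode laminin chains (5 alpha, 4 beta and 3 gamma). They are described across PC3, DU145 and LNCAP, 3 established human prostate cancer cell lines with 1 RNA sequencing library each. In the series design PC3 and DU145 stand for castration-resistant cancer and LNCAP for androgen-dependent cancer; PC3 came from a bone, DU145 from a brain and LNCAP from a lymph node metastasis. All lines were grown in serum-containing medium, no line was treated, and the labels give several media without saying which line had which. A line is a single tumour's descendants, and nothing in the labels points to a second culture, so no difference below has a replicate check.

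An integrin is a pair of 1 alpha and 1 beta chain that spans the cell membrane, binds matrix or other cells outside and connects to actin or to intermediate filaments inside. A laminin is a cross-shaped assembly of an alpha, a beta and a gamma chain, which are secreted together and built into the basement membrane. In normal prostate epithelium, basal cells rest on this membrane through the ITGA6/ITGB4 integrin of the hemidesmosome, whose ligand is a laminin that holds LAMA3 and LAMB3.

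The libraries held 15319045 counts in PC3, 15878546 in DU145 and 15393103 in LNCAP, and members took 95508, 102671 and 62068 of them. The prostate markers KLK3 and KLK2 had 0 counts in PC3 and DU145, against 2271 CPM (counts scaled to a common library size) for KLK3 and 358 CPM for KLK2 in LNCAP. FOLH1 stood at 0.131 CPM in PC3, 0 CPM in DU145 and 806 CPM in LNCAP. The epithelial keratin genes KRT8 and KRT18 were read in every library, from 189.5 to 1041 CPM, while the third epithelial marker, EPCAM, stood at 7.52 CPM in PC3, 69.7 CPM in DU145 and 61.7 CPM in LNCAP. The 8 leukocyte markers summed to 0.981 CPM in PC3, 7.53 CPM in DU145 and 0.448 CPM in LNCAP, with CD3E, TYROBP and LCP2 at 0 in all 3. Of the 7.53 CPM in DU145, CD79A gave 6.06 CPM and CD14 1.40 CPM, while PTPRC was at 0. The endothelial marker PECAM1 stood at 20.1 CPM in PC3, 0.766 CPM in DU145 and 0 CPM in LNCAP, and CDH5 had 3 counts or fewer in each.

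The promoters of a few laminin chains are shown because the results below turn on these genes: LAMB3 and LAMB1 were higher in PC3 and DU145 than in LNCAP, LAMC1 was lower, and LAMA3 was transcribed in all 3. RefSeq windows on GRCh38.p14, from 250 bases before to 50 after a start site, were found for 26 of the 38 members, 33 windows in all. Capitals mark TGANTCA, the core to which AP-1 factors bind, and GGGCGG, the GC box to which SP factors bind, each searched on both strands; where matches overlap, all their bases are capitals.
LAMA3, chr18:23872770-23873069, plus strand: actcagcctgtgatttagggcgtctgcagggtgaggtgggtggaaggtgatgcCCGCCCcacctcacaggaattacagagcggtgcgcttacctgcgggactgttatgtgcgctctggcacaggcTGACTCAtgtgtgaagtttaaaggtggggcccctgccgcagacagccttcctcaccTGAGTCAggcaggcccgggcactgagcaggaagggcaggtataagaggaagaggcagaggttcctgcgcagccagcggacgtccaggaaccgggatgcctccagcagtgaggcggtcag
LAMB3, chr1:209651325-209651624, minus strand: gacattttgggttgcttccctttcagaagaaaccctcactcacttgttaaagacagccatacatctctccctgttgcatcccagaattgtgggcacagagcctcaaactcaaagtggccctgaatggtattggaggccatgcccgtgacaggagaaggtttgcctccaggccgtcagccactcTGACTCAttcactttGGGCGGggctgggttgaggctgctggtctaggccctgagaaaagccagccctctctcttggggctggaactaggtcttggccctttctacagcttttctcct
LAMB1, chr7:108003112-108003411, minus strand: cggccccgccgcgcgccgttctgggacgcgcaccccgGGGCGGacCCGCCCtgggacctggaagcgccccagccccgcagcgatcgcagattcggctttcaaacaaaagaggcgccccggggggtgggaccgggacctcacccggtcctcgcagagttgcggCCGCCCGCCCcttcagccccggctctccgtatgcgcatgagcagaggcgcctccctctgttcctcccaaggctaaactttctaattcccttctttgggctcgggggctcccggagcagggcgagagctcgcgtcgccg
LAMC1, chr1:183023170-183023469, plus strand: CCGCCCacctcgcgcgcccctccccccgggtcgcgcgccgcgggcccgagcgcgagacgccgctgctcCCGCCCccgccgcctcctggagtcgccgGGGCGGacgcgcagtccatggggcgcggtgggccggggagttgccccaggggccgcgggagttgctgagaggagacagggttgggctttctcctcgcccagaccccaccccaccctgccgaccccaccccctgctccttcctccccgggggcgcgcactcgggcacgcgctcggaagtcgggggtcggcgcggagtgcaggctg

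The LAMA3 window, at a start inside the gene model, held TGANTCA 2 times, beginning 125 and 69 bases before the start. The LAMB3 window held it 1 time, beginning 67 bases before the start, while the other 2 LAMB3 windows in the table, at starts farther upstream, did not. The LAMB1 and LAMC1 windows held 4 and 3 GC boxes and no TGANTCA. Over all 33 windows of members 9.09% held TGANTCA, against 7.71% of the 35116 windows in the table, and 57.6% held GGGCGG, against 45.0%. ITGA5 was the other member with TGANTCA. A match describes the letters of the window and is no evidence of binding in these cells.

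Which alpha chain led differed between the lines: ITGA3 led in PC3 and DU145 and ITGAV led in LNCAP. FPKM is the deposited level per kilobase of listed gene length, which for all 38 members was the union of the annotated exons. In FPKM, ITGA3 made up 54.7% of the summed alpha chains in PC3 and 61.0% in DU145, against 3.22% in LNCAP. ITGAV made up 3.39% in PC3 and 8.92% in DU145, against 63.9% in LNCAP. The ITGA3 level was 16.1 times that of ITGAV in PC3 (95% counting interval 15.2 to 17.2) and 6.85 times in DU145 (6.55 to 7.16), whereas in LNCAP ITGAV was 19.9 times ITGA3 (17.6 to 22.5). These ratios are taken within a library and hold no scaling between libraries. They depend on the listed lengths, and their intervals cover counting error only. In bulk RNA a lower level per cell and fewer cells with the transcript cannot be told apart.

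**Figure D1:**
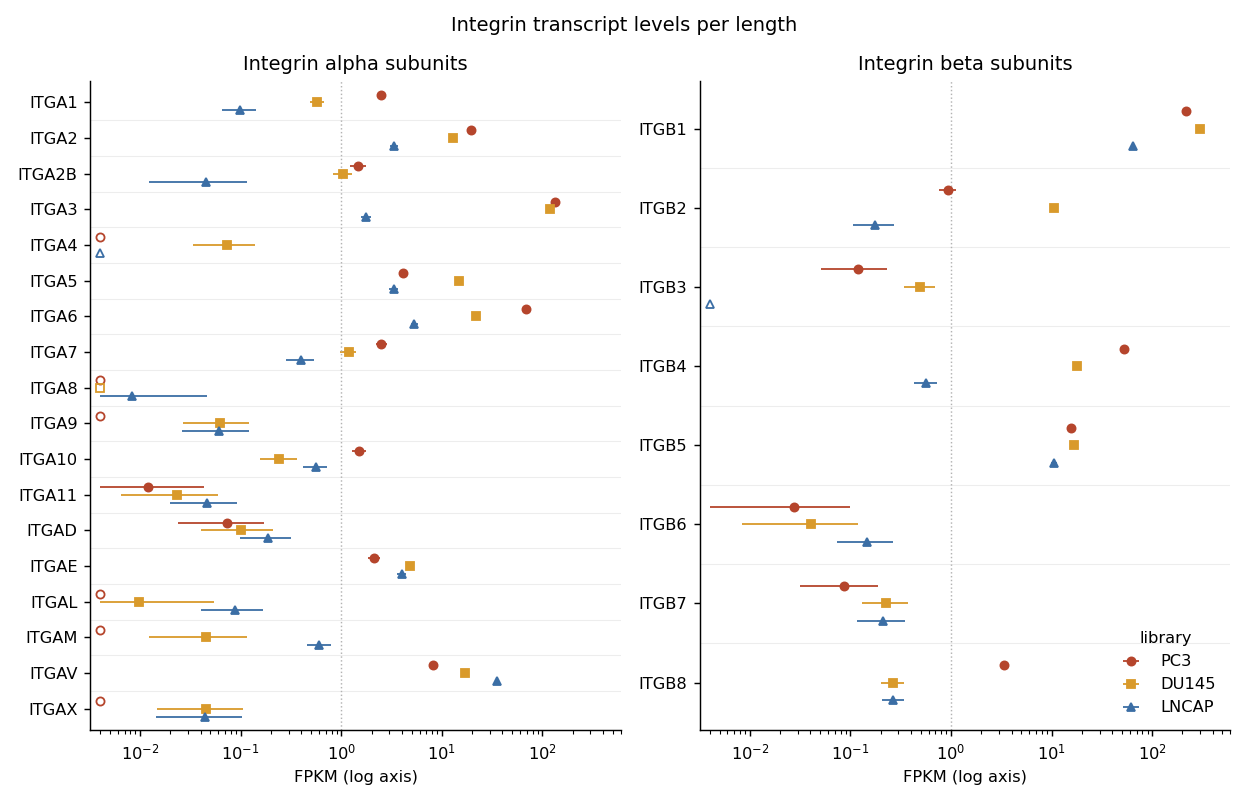
FPKM on a log axis for the 18 integrin alpha and 8 integrin beta genes in the PC3, DU145 and LNCAP libraries, with bars for the exact 95% Poisson interval of the count; open symbols at the left edge are genes with 0 counts, and bars that reach below the axis are cut there. ITGA3, ITGA6 and ITGB4 lie far to the left in LNCAP, ITGAV is highest in LNCAP, and ITGB1 is the highest integrin in all 3 libraries.

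Among receptors for laminin, ITGA3 (chromosome 17, 50055968 to 50090481) had 20047 counts in PC3, 18062 in DU145 and 277 in LNCAP. Its level was 133 FPKM in PC3, 117 FPKM in DU145 and 1.77 FPKM in LNCAP, so LNCAP stood far below both other lines. ITGA3 was 74.0-fold higher in PC3 than in LNCAP (95% counting interval 65.7 to 83.6) and 65.1-fold higher in DU145 than in LNCAP (57.8 to 73.5). By FPKM it ranked 161 of 19951 protein-coding genes in PC3 and 214 in DU145, against 9728 in LNCAP. ITGA6 (chromosome 2, 172427354 to 172506282), the alpha chain of the hemidesmosome, stood at 448 CPM in PC3, 142 CPM in DU145 and 35.4 CPM in LNCAP. PC3 was highest, at 12.6-fold over LNCAP (11.6 to 13.8), and DU145 was 4.00-fold over LNCAP (3.64 to 4.40, log2 ratio 1.998), which lies at the 4-fold line and just under it as scaled here. ITGB4 (chromosome 17, 75721328 to 75757818), which pairs only with ITGA6 and links to keratin filaments through a long cytoplasmic tail, had 5454 counts in PC3, 1894 in DU145 and 61 in LNCAP. It was 91.4-fold higher in PC3 than in LNCAP (71.1 to 119.7) and 31.0-fold higher in DU145 than in LNCAP (24.0 to 40.7). Per length, ITGB4 stood at 0.770 times ITGA6 in PC3 (0.743 to 0.798) and 0.824 times in DU145 (0.775 to 0.877), against 0.106 times in LNCAP (0.0803 to 0.139). ITGA7, a laminin receptor best known from muscle, was low throughout, with 246 counts in PC3, 118 in DU145 and 40 in LNCAP, 6.29-fold higher in PC3 (4.49 to 9.02) and 2.94-fold higher in DU145 (2.04 to 4.33) than in LNCAP.

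ITGB1, the beta chain shared by most alpha chains, was the most abundant integrin gene per length in each library. It had 20304 counts in PC3, 28427 in DU145 and 6102 in LNCAP, and ranked 72 among protein-coding genes in PC3 (219 FPKM), 59 in DU145 (301 FPKM) and 478 in LNCAP (63.8 FPKM). ITGB1 was 3.40-fold higher in PC3 than in LNCAP (3.31 to 3.50), short of 4-fold, and 4.65-fold higher in DU145 than in LNCAP (4.52 to 4.78). ITGB4 stood at 0.239 times ITGB1 per length in PC3 (0.232 to 0.246) and 0.0592 times in DU145 (0.0565 to 0.0621), against 0.00889 times in LNCAP (0.00679 to 0.0114).

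The collagen receptors ITGA1 (chromosome 5, 52787896 to 52959210) and ITGA2 (chromosome 5, 52989326 to 53094779) are neighbours, and both were lowest in LNCAP. ITGA2 had 2354 counts in PC3, 1612 in DU145 and 422 in LNCAP, which was 5.71-fold higher in PC3 than in LNCAP (5.14 to 6.34) and 3.81-fold higher in DU145 than in LNCAP (3.42 to 4.25). ITGA1 had 706 counts in PC3, 167 in DU145 and 29 in LNCAP, which was 24.9-fold higher in PC3 than in LNCAP (17.2 to 37.5) and 5.75-fold higher in DU145 than in LNCAP (3.86 to 8.84). The gene PELO lies within the ITGA1 model on the same strand and shares 475 bases of its exons; PELO ran the other way, with 453 counts in PC3, 813 in DU145 and 1332 in LNCAP. The other collagen receptors were scarce: ITGA10 had 147 counts in PC3, 24 in DU145 and 56 in LNCAP, and ITGA11 had 8 or fewer in each library.

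Receptors for fibronectin, vitronectin and latent TGF-beta, most of which recognise the RGD motif of their ligands, did not move as a block. ITGAV (chromosome 2, 186590065 to 186680901) had 1041 counts in PC3, 2210 in DU145 and 4606 in LNCAP, so it was highest in LNCAP. It was 4.33-fold lower in PC3 than in LNCAP (4.04 to 4.63) and 2.09-fold lower in DU145 than in LNCAP (1.99 to 2.20). ITGA5, the alpha chain of the main fibronectin receptor, stood at 31.1 CPM in PC3, 113 CPM in DU145 and 25.7 CPM in LNCAP. Only DU145 stood apart here, at 4.41-fold over LNCAP (3.95 to 4.92), while PC3 was 1.21-fold over LNCAP (1.06 to 1.38). ITGB5, a partner of ITGAV, kept close to 1 level, with 102 CPM in PC3, 108 CPM in DU145 and 69.3 CPM in LNCAP. ITGB8, another partner of ITGAV that takes part in TGF-beta activation, had 794 counts in PC3, 63 in DU145 and 64 in LNCAP. PC3 was thus alone in ITGB8, at 12.7-fold over LNCAP (9.83 to 16.6), while DU145 was 1.02-fold below LNCAP (0.708 to 1.47). ITGB3, the other classical partner of ITGAV, had 8 counts in PC3, 34 in DU145 and 0 in LNCAP. Over LNCAP it was higher by at least 2.73-fold in PC3 and by at least 11.3-fold in DU145, taking 3 counts as the most that a count of 0 allows. AC068234.1, a model annotated as coding that covers 51.6% of the ITGB3 exon bases on the same strand, had 0 counts in each library. ITGB6, which pairs with ITGAV in epithelium, had 2 counts in PC3, 3 in DU145 and 11 in LNCAP and stayed under the filter.

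Integrins known from blood cells differed widely in level. ITGB2 (chromosome 21, 44885953 to 44931989), the common beta chain of leukocyte integrins, had 97 counts in PC3, 1119 in DU145 and 19 in LNCAP. DU145 stood apart, at 58.8-fold over LNCAP (37.4 to 98.0), and PC3 was 5.22-fold over LNCAP (3.17 to 9.04). Its alpha partners did not accompany it: ITGAL, ITGAM, ITGAX and ITGAD had 5 counts or fewer each in PC3 and 7 or fewer in DU145, against 5 to 55 in LNCAP. The antisense gene ITGB2-AS1, which shares 303 exon bases with ITGB2, had 7 counts in PC3, 138 in DU145 and 0 in LNCAP; the strand setting of the counting is not given in the sources used here, so reads of the pair cannot be told apart. As given above, the 8 leukocyte markers summed to 0.981 CPM in PC3, 7.53 CPM in DU145 and 0.448 CPM in LNCAP. CD79A and CD14 gave most of the DU145 sum, while PTPRC was at 0 there. Whether these markers bear on ITGB2 was not tested. Of the 4 alpha partners of ITGB2, ITGAM alone passed the filter, with 0 counts in PC3, 4 in DU145 and 55 in LNCAP. ITGAM was at least 17.9-fold lower in PC3 and 13.8-fold lower in DU145 than in LNCAP (5.09 to 52.4). ITGA2B, the alpha chain of the platelet fibrinogen receptor, had 126 counts in PC3, 90 in DU145 and 4 in LNCAP. It was 32.2-fold higher in PC3 (12.3 to 120.1) and 22.4-fold higher in DU145 (8.47 to 84.2) than in LNCAP. The platelet markers PF4 and GP9 had 1 count or fewer in each library, and GP1BA stood at 3.14 CPM in PC3, 7.59 CPM in DU145 and 11.3 CPM in LNCAP. ITGAE, whose known ligand is E-cadherin, had 217 counts in PC3, 506 in DU145 and 421 in LNCAP, and 6.41% of its exon bases overlap HASPIN on the other strand. Its partner ITGB7 had 6 counts in PC3, 16 in DU145 and 15 in LNCAP, and 42.1% of its exon bases overlap ZNF740 on the other strand, which had 832 counts or more in each library.

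Of the 38 members 9 stayed below 1 CPM in every library and were not compared: ITGA4, ITGA8, ITGA9, ITGA11, ITGAD, ITGAL, ITGAX, ITGB6 and LAMB4. Their counts ran from 0 to 5 in PC3, from 0 to 9 in DU145 and from 0 to 13 in LNCAP. At these depths a count of 0 allows up to 0.196 CPM in PC3, 0.191 CPM in DU145 and 0.192 CPM in LNCAP.

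Laminin alpha chains were led by LAMA5 in PC3 and DU145 and by LAMA3 in LNCAP. LAMA5 (chromosome 20, 62307955 to 62367312), the widespread epithelial chain, had 17406 counts in PC3, 10398 in DU145 and 4193 in LNCAP. It was 4.25-fold higher in PC3 than in LNCAP (4.10 to 4.39) and 2.47-fold higher in DU145 than in LNCAP (2.39 to 2.57). ADRM1 overlaps 1.71% of the LAMA5 exon bases on the other strand and had 2338 counts in PC3, 1871 in DU145 and 1413 in LNCAP. LAMA3 (chromosome 18, 23689443 to 23956222), the alpha chain of the hemidesmosome ligand, had 2969 counts in PC3, 7642 in DU145 and 9239 in LNCAP, so it was lowest in PC3, by 3.04-fold against LNCAP (2.92 to 3.17). DU145 was 1.21-fold below LNCAP in LAMA3 (1.18 to 1.25). Per length, LAMA3 stood at 0.166 times LAMA5 in PC3 (0.160 to 0.173) and 0.716 times in DU145 (0.695 to 0.737), against 2.15 times in LNCAP (2.07 to 2.23).

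LAMA1 (chromosome 18, 6941744 to 7117814), the chain of the early embryonic basement membrane, had 4 counts in PC3, 1555 in DU145 and 247 in LNCAP. The lines therefore lay on either side of LNCAP: LAMA1 was 60.4-fold lower in PC3 than in LNCAP (23.3 to 223) and 6.28-fold higher in DU145 than in LNCAP (5.49 to 7.21). LAMA4, known from vessels and mesenchyme, had 62 counts in PC3, 0 in DU145 and 1 in LNCAP, and LAMA2, known from muscle and nerve, had 32 in PC3, 91 in DU145 and 3 in LNCAP. LAMA4 was 63.4-fold higher in PC3 than in LNCAP, with a wide interval from a single LNCAP count (11.0 to 2544). LAMA2 was 10.9-fold higher in PC3 than in LNCAP (3.41 to 55.7) and 30.3-fold higher in DU145 than in LNCAP (10.03 to 149), from 3 LNCAP counts.

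**Figure D2:**
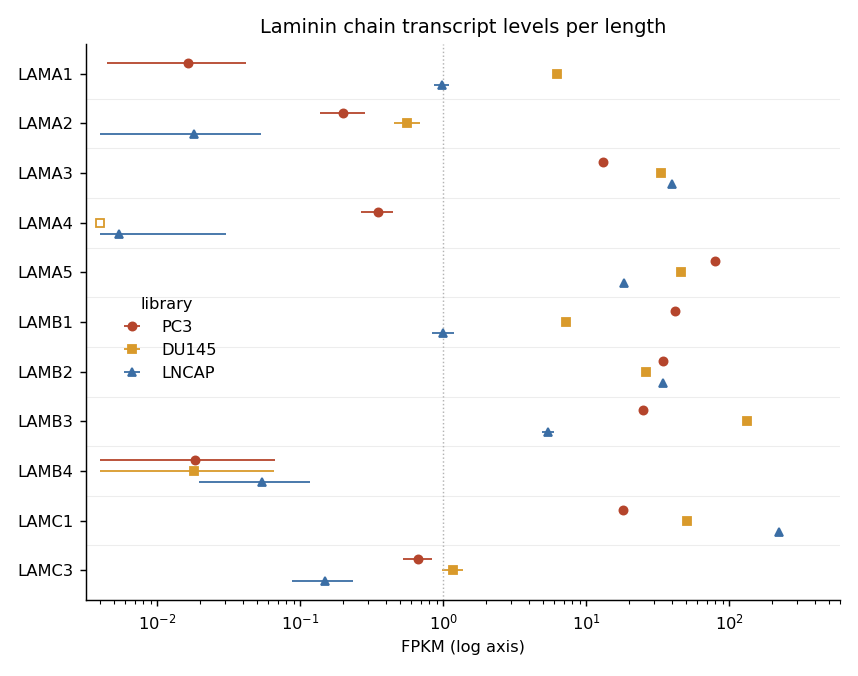
FPKM on a log axis for 11 of the 12 laminin genes in the PC3, DU145 and LNCAP libraries, with bars for the exact 95% Poisson interval of the count; the open symbol is a gene with 0 counts, and bars that reach below the axis are cut there. LAMC1 is highest in LNCAP at 222 FPKM and LAMB3 in DU145 at 134 FPKM, while LAMB2 is nearly level across the lines.

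The beta chains differed by line. LAMB1 (chromosome 7, 107923799 to 108003255) had 5234 counts in PC3, 923 in DU145 and 129 in LNCAP, with PC3 highest. It was 41.5-fold higher in PC3 than in LNCAP (34.8 to 49.8) and 7.14-fold higher in DU145 than in LNCAP (5.93 to 8.65). DLD, which overlaps 70 of the LAMB1 exon bases on the other strand, had 1629 counts in PC3, 1531 in DU145 and 3789 in LNCAP. LAMB3 (chromosome 1, 209614870 to 209652466), the beta chain of the hemidesmosome ligand, had 1792 counts in PC3, 9853 in DU145 and 404 in LNCAP, with DU145 highest. It was 4.54-fold higher in PC3 than in LNCAP (4.07 to 5.07) and 24.3-fold higher in DU145 than in LNCAP (22.0 to 26.9). In DU145 LAMB3 stood at 134 FPKM and ranked 178 among protein-coding genes, against 6689 in LNCAP. LAMB2 varied little, with 3655 counts in PC3, 2834 in DU145 and 3767 in LNCAP. As shares of the summed beta chains in FPKM, LAMB1 led in PC3 at 41.3%, LAMB3 in DU145 at 80.0% and LAMB2 in LNCAP at 84.2%.

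LAMC1 (chromosome 1, 183023460 to 183145592), the gamma chain of most laminins, had 2354 counts in PC3, 6664 in DU145 and 29748 in LNCAP. LNCAP stood highest and PC3 lowest. LAMC1 was 12.4-fold lower in PC3 than in LNCAP (11.8 to 12.9) and 4.47-fold lower in DU145 than in LNCAP (4.36 to 4.60), and in LNCAP its FPKM of 222 ranked 77 among protein-coding genes. LAMC3 was low, with 78 counts in PC3, 139 in DU145 and 18 in LNCAP, 4.43-fold higher in PC3 (2.63 to 7.86) and 7.70-fold higher in DU145 (4.70 to 13.4) than in LNCAP.

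**Figure D3:**
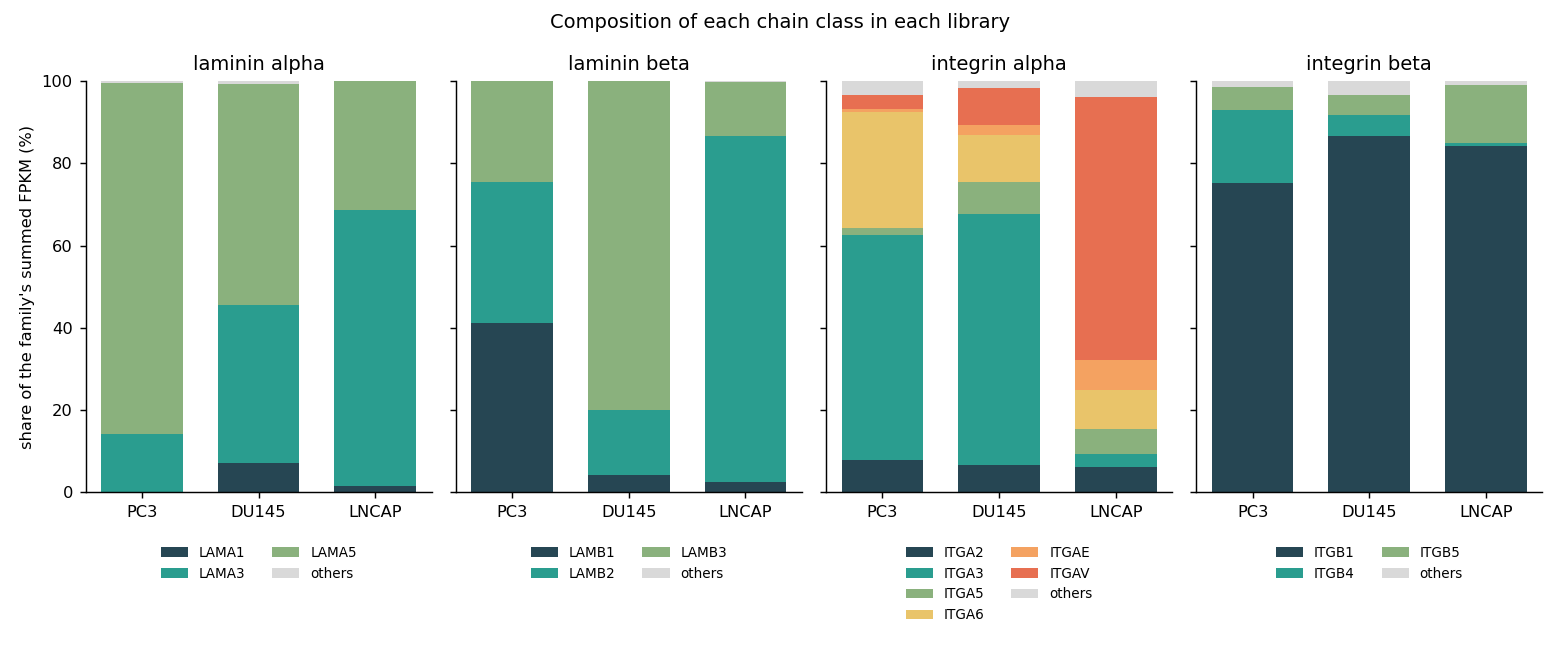
Share of the summed FPKM of laminin alpha, laminin beta, integrin alpha and integrin beta chains taken by their genes, in percent, in the PC3, DU145 and LNCAP libraries; genes that reach 5% in at least 1 library have their own colour. LAMB2 takes 84.2% of the laminin beta chains in LNCAP and ITGAV 63.9% of the integrin alpha chains there, while ITGA3 takes 54.7% of the alpha chains in PC3 and 61.0% in DU145.

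The chains known to assemble were then read together, by the lowest chain of each combination in FPKM. Of 24 integrin pairs, 11 had both chains at 1 FPKM or more in PC3, 8 in DU145 and 6 in LNCAP. With both chains at 10 FPKM or more there were 4 in PC3, 7 in DU145 and 2 in LNCAP. Which line led thus depends on the cut. Of 11 laminin trimers, 5 had all chains at 1 FPKM or more in PC3, 7 in DU145 and 2 in LNCAP. At 10 FPKM or more there were 5 in PC3, 3 in DU145 and 2 in LNCAP, so the leading line again depends on the cut. In LNCAP other trimers fell just under 1 FPKM through LAMA1 or LAMB1. LAMA1 stood there at 0.977 FPKM (counting interval 0.859 to 1.11) and LAMB1 at 0.995 FPKM (0.831 to 1.18). Both intervals include 1, so the LNCAP count at that cut, and its place below PC3, are not settled. For the ITGA6/ITGB4 pair the lowest chain was ITGB4 in each library, at 52.4 FPKM in PC3, 17.9 in DU145 and 0.567 in LNCAP. Of the chains of its ligand, LAMB3 stood at 1.89 times LAMA3 per length in PC3 (1.78 to 2.005) and 4.04 times in DU145 (3.92 to 4.16), against 0.137 times in LNCAP (0.124 to 0.151). LNCAP thus had LAMA3 transcript at 39.5 FPKM with little of the LAMB3 that accompanies it in that ligand, at 5.41 FPKM. The trimer of LAMA3, LAMB2 and LAMC1 had a lowest chain of 13.1 FPKM in PC3, 26.3 in DU145 and 34.5 in LNCAP. The laminin of LAMA5, LAMB2 and LAMC1 had all chains well detected everywhere, with a lowest chain of 18.2 FPKM in PC3, 26.3 in DU145 and 18.4 in LNCAP. The trimer of LAMA1, LAMB1 and LAMC1 had LAMA1 as its lowest chain in each library, at 0.0164 FPKM in PC3, 6.25 in DU145 and 0.977 in LNCAP. In LNCAP the interval of LAMB1, at 0.995 FPKM, overlapped that of LAMA1, so their order there is not settled. These are transcript levels, and protein assembly was not measured.

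Against LNCAP, members were called apart when at least 4-fold different with a counting interval that left out a ratio of 1. In PC3, 17 of the 29 compared members were higher and 4 lower than in LNCAP, where 13% and 13.4% of all 18025 compared genes were. In DU145, 14 were higher and 2 lower than in LNCAP, where 13.7% and 12.1% of all compared genes were. The median log2 ratio of the 29 members was 2.18 for PC3 over LNCAP and 1.998 for DU145 over LNCAP, beside -0.01 for PC3 over LNCAP and 0.00 for DU145 over LNCAP in all compared genes. With members lacking counts in a library set at their bound, the median was 2.12 for PC3 over LNCAP. For DU145 over LNCAP it was 2.07 over 28 members, because LAMA4, with 1 count or fewer in both libraries, was left out. A gene passes the filter through any library in which it is high, so these counts and medians describe the members and are not a test of the list. Both comparisons share the LNCAP library.

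**Figure D4:**
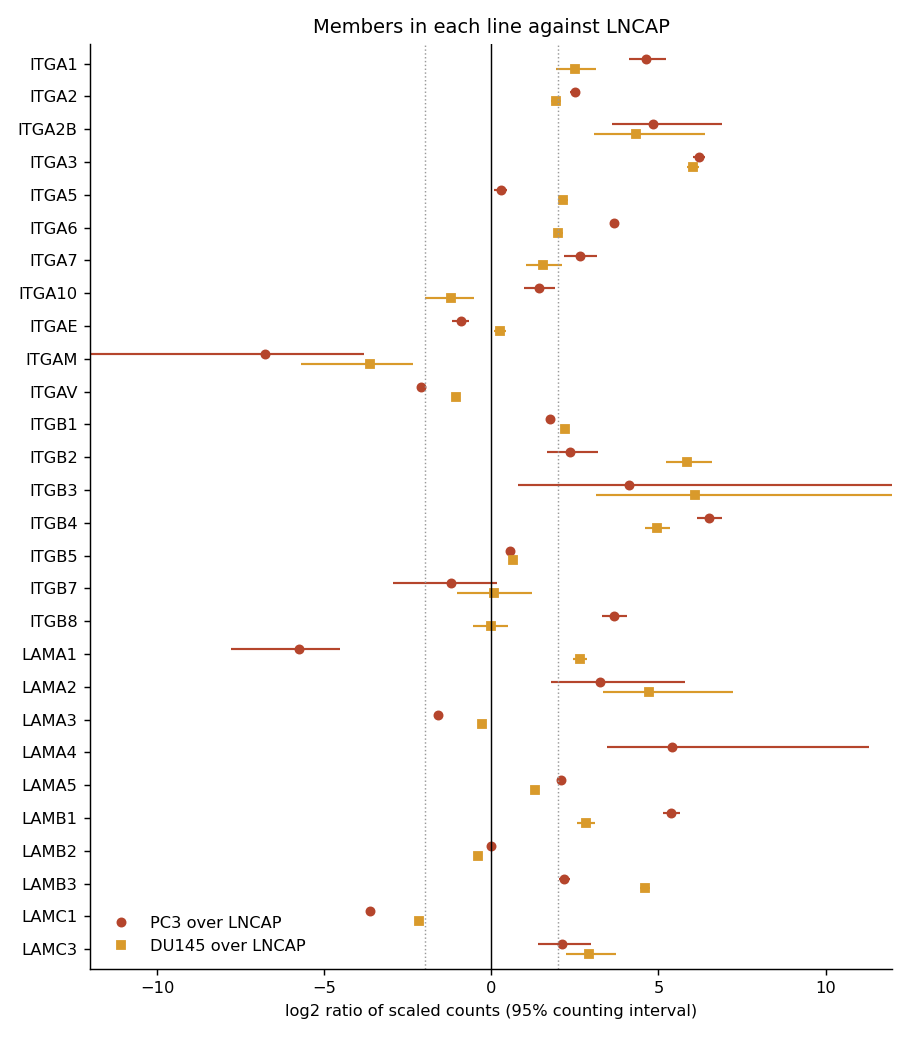
Log2 ratio of scaled counts, PC3 over LNCAP and DU145 over LNCAP, for 28 of the 29 compared members; lines are 95% counting intervals, dotted lines mark 4-fold, intervals that run off the axis are open-ended, and LAMA4 in DU145 is left out because both libraries had 1 count or fewer. LAMC1, ITGAV and ITGAM are among the members to the left of 0 in both lines, and LAMA1 lies on opposite sides.

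Members called higher in both lines included ITGA1, ITGA2B, ITGA3, ITGB2, ITGB3, ITGB4, LAMA2, LAMB1, LAMB3 and LAMC3. The ITGB3 call in PC3 rests on 8 against 0 counts and on the 0.5 counts added: its bound of 2.73-fold lies under 4-fold, and with 5 counts added its log2 ratio was 1.39, under the line. The LAMC3 call in PC3 was lost there too, at 1.88. LAMC1 and ITGAM were called lower in both. A further 6 were called higher in PC3 without a call in DU145 (ITGA2, ITGA6, ITGA7, ITGB8, LAMA4 and LAMA5), and 2 in DU145 without a call in PC3 (ITGA5 and ITGB1). ITGAE, ITGA10, ITGB5, ITGB7, LAMA3 and LAMB2 were called in neither.

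The class comparison took PC3 and DU145 as 2 libraries against LNCAP, so that the distance between these lines stands for the spread. In edgeR's quasi-likelihood test with Benjamini-Hochberg adjustment over all 18025 genes, 0 of 29 members passed at 0.05 in either direction, as did 0% of all genes, with 1 residual degree of freedom. At an unadjusted p under 0.05, edgeR had 8 members higher and 1 lower, where 5.38% and 4.31% of all genes were. Limma-voom had 5 higher and 1 lower at that level, where 2.65% and 4.75% of all genes were, and also passed 0 members and 0% of genes after adjustment. The lowest adjusted p of a member in edgeR was that of ITGA3 (0.266, log2 difference 6.12, higher in both lines). DESeq2's Wald test passed 12 members after adjustment, where 5.03% of all genes were higher and 2.17% lower. Those higher included ITGA1, ITGA2, ITGA2B, ITGA3, ITGA6, ITGB1, ITGB2, ITGB4, LAMB1 and LAMB3, and LAMC1 was lower (DESeq2 adjusted p = 0.0304, log2 difference -2.72). At an unadjusted p under 0.05 DESeq2 had 13 members higher and 1 lower, where 9.44% and 4.62% of all genes were. The call of the class difference thus depends on the tool.

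Between the 2 castration-resistant lines fewer members stood apart. PC3 was at least 4-fold higher than DU145 in 5 of 29 members and lower in 3, where 8.54% and 10.6% of all compared genes were, and the members' median log2 ratio was -0.45 (-0.38 with members at their bound), beside 0.00 for all compared genes. The largest difference was in LAMA1, 379-fold lower in PC3 than in DU145 (148 to 1394), and LAMA4 was at least 21.2-fold higher in PC3. Beta chains traded places: LAMB1 was 5.81-fold higher in PC3 than in DU145 (5.42 to 6.24) and LAMB3 5.36-fold lower (5.10 to 5.64). ITGB8 was 12.9-fold higher in PC3 than in DU145 (9.99 to 16.98), ITGB2 11.3-fold lower (9.14 to 14.0), ITGA1 4.33-fold higher (3.66 to 5.16) and ITGA10 6.28-fold higher (4.06 to 10.1). The hemidesmosome chains ITGA6 and ITGB4 were higher in PC3 by 3.16-fold (3.01 to 3.32) and 2.95-fold (2.80 to 3.11). ITGA3 was nearly level, at 1.14-fold (1.11 to 1.16), and ITGA5 was 3.65-fold lower in PC3 (3.29 to 4.04).

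**Figure D5:**
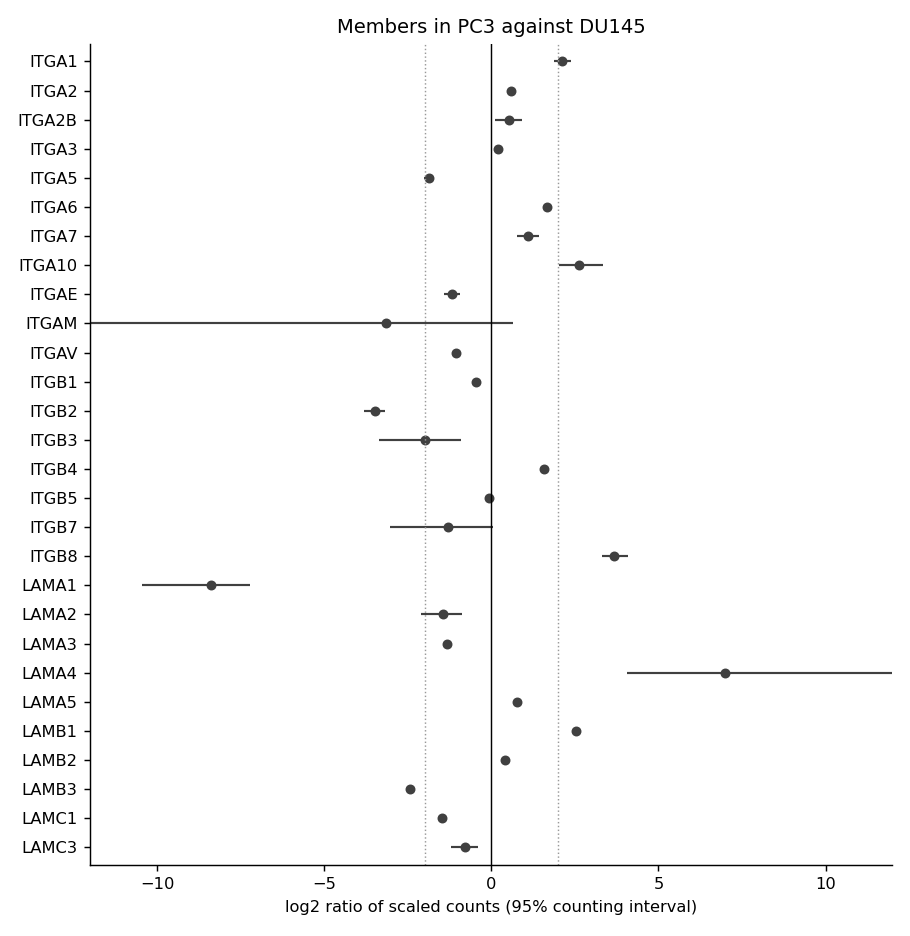
Log2 ratio of scaled counts, PC3 over DU145, for 28 of the 29 compared members; lines are 95% counting intervals, dotted lines mark 4-fold, and intervals that run off the axis are open-ended. LAMA1 lies far to the left at -8.40 and LAMA4 far to the right, at a point that depends on the 0.5 counts added to its 0 in DU145, while ITGA3, ITGB5 and LAMB2 lie near 0.

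Genes that work with integrins inside the cell were read from a list of 38. Of 37 compared, 13 were at least 4-fold higher in PC3 than in LNCAP and 2 lower, and 8 were higher and 2 lower in DU145 than in LNCAP. Over all compared genes 13% were higher and 13.4% lower in PC3 than in LNCAP, and 13.7% higher and 12.1% lower in DU145 than in LNCAP, the shares against which the counts of the lists that follow stand. The median log2 ratio of the list was 1.35 for PC3 over LNCAP and 0.998 for DU145 over LNCAP. TNS3, a tensin that binds integrin tails, stood at 241 CPM in PC3, 231 CPM in DU145 and 4.48 CPM in LNCAP. FERMT2, a kindlin that activates integrins together with talin, stood at 307 CPM in PC3, 149 CPM in DU145 and 12.03 CPM in LNCAP. TGFB1I1, a paxillin relative, was higher by at least 202-fold in PC3 and by at least 45.2-fold in DU145 than in LNCAP, which had 0 counts. PTK2B, a kinase related to FAK, was lower, with 3.60 CPM in PC3, 24.8 CPM in DU145 and 151 CPM in LNCAP. Between PC3 and DU145, 4 of the 37 were higher and 2 lower in PC3, where 8.54% and 10.6% of all compared genes were, among the higher ones the docking protein gene NEDD9, with 20.2 CPM (PC3) against 0.511 CPM (DU145).

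Hemidesmosome partners of ITGA6/ITGB4 were not uniform. PLEC, which encodes the plectin that ties ITGB4 to keratins, was 5.31-fold higher in PC3 than in LNCAP (5.19 to 5.44). In DU145 against LNCAP PLEC was not called. DST, a second such linker gene, had 342 CPM in PC3, 1027 CPM in DU145 and 18.4 CPM in LNCAP. COL17A1, a transmembrane collagen of the hemidesmosome, was found mainly in DU145, with 0.589 CPM in PC3, 21.4 CPM in DU145 and 1.22 CPM in LNCAP. The basal keratin gene KRT14 had 0 counts in PC3 and DU145, against 5.69 CPM in LNCAP. Of the 6 compared partners, 2 were called higher and 1 lower in each line against LNCAP, too few genes to set against the 13% higher and 13.4% lower of all compared genes in PC3 or the 13.7% and 12.1% in DU145.

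Other basement membrane genes were more often higher than lower. Of 15 compared, 8 were at least 4-fold higher in PC3 than in LNCAP and 1 lower, and 10 were higher and 2 lower in DU145 than in LNCAP. Over all compared genes these shares were 13% and 13.4% in PC3, and 13.7% and 12.1% in DU145. NID1, which encodes the nidogen that bridges laminin to collagen IV, stood at 62.3 CPM in PC3, 49.4 CPM in DU145 and 0.384 CPM in LNCAP. COL4A1, a collagen IV chain gene, had 0 counts in LNCAP. It was higher by at least 331-fold in PC3 and by at least 118-fold in DU145 than in LNCAP. NTN4, a laminin-related netrin gene, stood at 231 CPM in PC3, 157 CPM in DU145 and 2.17 CPM in LNCAP. Other collagen IV chain genes split the lines. COL4A5 stood at 97.9 CPM in PC3, 4.79 CPM in DU145 and 131 CPM in LNCAP. COL4A4 stood at 0.131 CPM in PC3, 15.95 CPM in DU145 and 0.576 CPM in LNCAP.

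Integrin ligands other than laminins were called in both directions. Of 17 compared, 8 were higher and 3 lower in PC3 than in LNCAP, and 8 were higher and 4 lower in DU145 than in LNCAP. All compared genes gave 13% higher and 13.4% lower in PC3, so the 3 lower ligands lie near that share, and 13.7% higher and 12.1% lower in DU145. FN1, which encodes fibronectin, the ligand of ITGA5/ITGB1, stood at 377 CPM in PC3, 33.5 CPM in DU145 and 5033 CPM in LNCAP. The gene of the ITGAE ligand, CDH1, stood at 2.22 CPM in PC3, 145 CPM in DU145 and 786 CPM in LNCAP. EDIL3, which encodes a ligand of ITGAV integrins, had 0 counts in LNCAP, against 125 CPM in PC3 and 450 CPM in DU145. TNC, the tenascin C gene, stood at 331 CPM in PC3, 178 CPM in DU145 and 1.60 CPM in LNCAP.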

How the data were processed

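The authors deposited, for each library, whole-number raw counts with no normalization and a table of FPKM, which in the deposited files equalled count over listed gene length times 1 constant per library. Among tools, Cuffdiff 2.1.1, Cufflinks 2.1.1, TopHat2 2.0.9 and Bowtie2 2.0.6 appear in the submitters' processing notes, with no roles. Counter, strand setting and build were not stated there. All 58735 genes matched GENCODE 29 in position, so coordinates are on GRCh38, and reads shared by overlapping genes are uncertain. Counts were scaled by TMM (edgeR 4.0.16, R 4.3.3) over 18025 genes that reached 1 CPM in any library (factors 0.998, 0.987 and 1.016 in PC3, DU145 and LNCAP). Ratios carry exact 95% conditional binomial intervals (scipy 1.17.1); log2 ratios have 0.5 counts added; a call needs 4-fold and an interval without 1. Intervals and floors of 3 counts cover counting error only. Folds given as at least a value set a count of 0 to 3 and take the other count as read. DESeq2 1.42.0 and limma 3.58.1 were alternatives to edgeR for the class. Both steps were tested on simulated data. The class simulation drew the libraries of a class as replicates, not as different lines, so it does not give the error rate here. Counts and sums cover all members, of which 1 is not reported here by itself; companion lists are described by counts and by up to 4 genes with the largest near bound, plus some chosen after their values were seen. Members and lists were chosen with earlier results of these data known. P-values measure only the spread between these lines.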

Additional observations from a re-analysis of the deposited data

Results flagged for a closer look

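LAMA1 stood out because the castration-resistant lines lay on opposite sides of LNCAP, with log2 ratios of -5.75 for PC3 over LNCAP and 2.65 for DU145 over LNCAP. The difference between the lines was not tested, since each had 1 library. The counts behind it were 4 in PC3, 1555 in DU145 and 247 in LNCAP. With 1 added to FPKM, the LAMA1 log2 ratios shrank to -0.96 for PC3 over LNCAP and 1.87 for DU145 over LNCAP. Both calls were lost in that setting, while the signs stayed opposite. The antisense gene AP002409.1, which shares 1641 exon bases with LAMA1, had 0 counts in PC3, 2 in DU145 and 0 in LNCAP.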

How the results depend on the processing

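No paired analysis was possible because each line has 1 library. The counts of called members stayed within 1.5 times of those reported when scaled by library totals, by DESeq2 size factors, by the authors' FPKM constant, without mitochondrial genes, with TMM over unfiltered genes (chosen after seeing the data) or with 5 counts added. ITGA6 in DU145 passed 4-fold under the authors' constant (log2 2.02) and under unfiltered TMM (2.04). No ratio that was called changed sign. With no filter, 7 members were lower in PC3 than in LNCAP (10.3% of all genes) and 5 lower in PC3 than in DU145 (7.61% of all genes). A 5 CPM filter left 1 member lower in DU145 than in LNCAP (8.96% of all genes). With 1 added to FPKM, which shrinks low genes, 8 were higher and 1 lower in PC3 than in LNCAP (5.03% and 4.14% of all genes), 7 higher and 1 lower in DU145 than in LNCAP (4.92% and 3.69%), and 1 higher in PC3 than in DU145 (2.62%). At 2-fold, 4 were lower in DU145 than in LNCAP (23.1% of all genes), and 8 were higher and 10 lower in PC3 than in DU145 (18.5% and 19.3% of all genes). In the class comparison DESeq2 called 11 members higher and 1 lower, against 0 in edgeR; the cause was not tested. Leaving out PC3 or DU145 leaves no residual degree of freedom, so only the ratios of the other line remain. With 5 counts added, LAMC3 and ITGB3 lost their call in PC3 against LNCAP (log2 1.88 and 1.39). Genes under 1 CPM are limited by depth.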

Other observations

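Of 7 laminin receptors that are not integrins, 0 were at least 4-fold apart in PC3 against LNCAP, where 26.4% of all compared genes were. In DU145 against LNCAP 2 were higher and 1 lower, where 13.7% and 12.1% of all compared genes were. BCAM, which encodes a receptor for LAMA5, was 4.72-fold higher in DU145 than in LNCAP (4.31 to 5.17). SDC4, a syndecan gene, stood at 51.6 CPM in PC3, 227 CPM in DU145 and 54.5 CPM in LNCAP, and SDC2 at 26.6 CPM in PC3, 2.11 CPM in DU145 and 13.5 CPM in LNCAP.

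Tetraspanins that sit beside integrins in the membrane had few calls, with 1 of 7 higher and 2 lower in PC3 than in LNCAP (13% and 13.4% of all compared genes). In DU145, 1 was higher and 0 lower than in LNCAP (13.7% and 12.1%). These are too few genes to set against the shares of all compared genes. TSPAN4 was 7.52-fold higher in PC3 than in LNCAP (6.56 to 8.64) and 5.35-fold higher in DU145 than in LNCAP (4.66 to 6.17). CD82 stood at 1.05 CPM in PC3, 8.998 CPM in DU145 and 7.80 CPM in LNCAP. CD9 was 4.61-fold lower in PC3 than in LNCAP (4.35 to 4.89).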
